A study of Mus musculus with 10 samples.

Results

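The genes described here are 10 feedback genes of growth factor and stress signalling: the MAP kinase phosphatases Dusp1, Dusp4, Dusp5 and Dusp6, the mRNA decay factors Zfp36, Zfp36l1 and Zfp36l2, and the immediate-early response genes Ier2, Ier3 and Ier5. They were chosen by name, and where a gene had more than 1 probe set carrying its symbol alone, the brightest on average was taken. All 10 were measured, of 18826 genes tested, and each lay above the 25th percentile of every array. The arrays came from salivary gland cells of female NOD/shiLtJ mice, an inbred strain that develops autoimmune diabetes and lymphocytic inflammation of the salivary glands. One group had type 1 diabetes at 21 weeks of age (n = 4), another of the same age had no diabetes (n = 3), and the third was 6 weeks old with no diabetes (n = 3). No transgene or drug is named in the labels for any group, and all the glands were digested with dispase II and collagenase IV at 37 °C before RNA extraction. Each array was read as 1 mouse. The labels number the samples and do not say whether glands of several mice were pooled. They give no litter, batch, time of day or gland, so the p-values measure the spread between these samples.

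MAP kinase pathways carry signals from receptors to the nucleus through kinases that are switched on by phosphorylation. Dual-specificity phosphatases remove those phosphates, and many of their genes are switched on by the same pathways, which closes a negative feedback loop. The Zfp36 proteins are zinc finger proteins that bind AU-rich elements in the 3′ ends of short-lived mRNAs, many of them for cytokines, and recruit the enzymes that shorten the poly(A) tail. Ier genes are transcribed within minutes of stimulation. Many such transcripts are also known to be induced by enzymatic dissociation of tissue, a step that all 3 groups shared and whose part in the results was not tested.

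Between the diabetic and the nondiabetic mice of 21 weeks, 6 of the 10 genes rose, 0 fell and 4 did not pass the test. The genes that rose were Ier3, Zfp36, Dusp5, Dusp1, Ier2 and Zfp36l1, by 3.63-fold to 1.51-fold. Dusp4 and Zfp36l2 had higher group means without passing, and Dusp6 and Ier5 differed little between the groups. The test was limma's moderated statistic with Benjamini-Hochberg adjustment over all genes and a threshold of 0.05, by which 1.1% of all genes were higher and 0.34% lower in this comparison. The median log2 change was 0.90 over the 10 genes and 0.035 over all genes. In 7 of the 10 every diabetic array lay above every nondiabetic array of the same age, against 9.11% of all genes. By the same fit 207 genes were higher and 64 lower over the whole array, and 130 and 100 after quantile normalization.

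**Figure D1:**
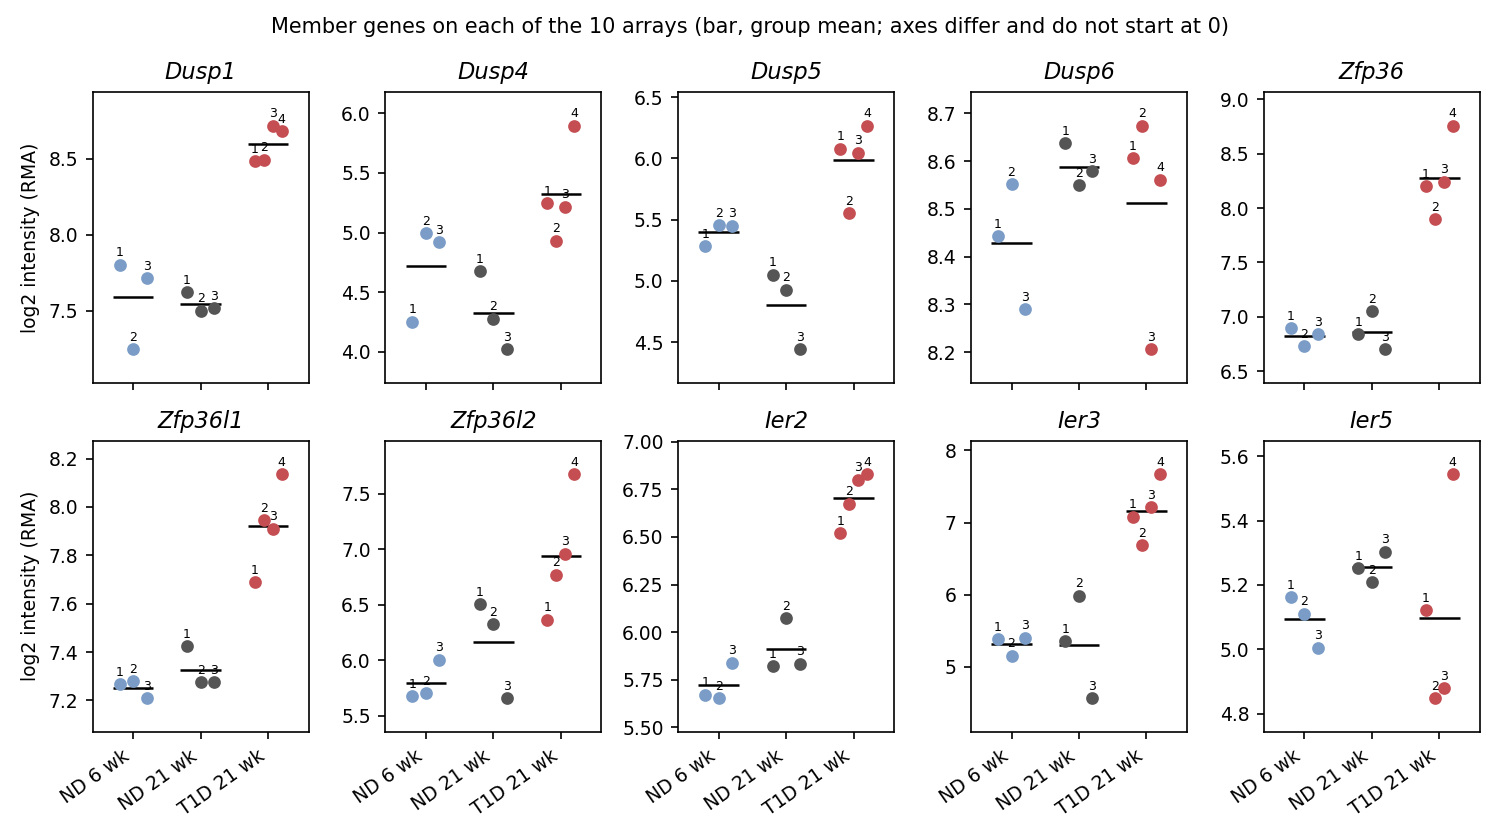
Log2 intensity (vertical axes, which differ between panels and do not start at 0) of each of the 10 genes on each array, by group: nondiabetic at 6 weeks (ND 6 wk), nondiabetic at 21 weeks (ND 21 wk) and diabetic at 21 weeks (T1D 21 wk). Points are arrays with their number within the group and bars are group means; the diabetic points lie above both other groups for Dusp1, Dusp5, Zfp36, Zfp36l1, Ier2 and Ier3, and among them for Dusp6.

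Dusp1, a nuclear phosphatase that acts on p38, JNK and ERK kinases, stood at 8.48, 8.49, 8.72 and 8.68 on the diabetic arrays in log2 intensity. It stood at 7.62, 7.50 and 7.51 on the nondiabetic arrays of 21 weeks and at 7.80, 7.25 and 7.71 on those of 6 weeks. The diabetic arrays were thus higher than all 6 others, and the nondiabetic groups overlapped. The rise over the nondiabetic mice of the same age was 2.07-fold (log2 change 1.05 ± 0.15 SE, adjusted p = 0.00414), and over the 6-week mice 2.01-fold (1.01 ± 0.15, adjusted p = 0.00635). Dusp1 is also a textbook target of the glucocorticoid receptor.

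Dusp5, a nuclear phosphatase with a strong preference for ERK kinases, gave log2 intensities of 6.08, 5.55, 6.05 and 6.27 on the diabetic arrays. The nondiabetic arrays of 21 weeks gave 5.05, 4.93 and 4.44, and those of 6 weeks gave 5.28, 5.46 and 5.45. The 3 groups did not overlap: the older nondiabetic mice were lowest, the young mice lay between, and the diabetic mice were highest. Dusp5 rose 2.27-fold against the nondiabetic mice of 21 weeks (1.18 ± 0.18, adjusted p = 0.0085). Against the 6-week mice its log2 change was 0.59 ± 0.18 and did not pass (adjusted p = 0.148).

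Dusp4, a nuclear phosphatase of ERK and JNK, stood at 5.25, 4.93, 5.22 and 5.90 on the diabetic arrays. On the nondiabetic arrays of 21 weeks it stood at 4.68, 4.28 and 4.02, below every diabetic array. The 6-week values of 4.25, 4.99 and 4.92 overlapped both other groups. The log2 change with diabetes was 1.00 ± 0.24 (adjusted p = 0.0651). It passed with the arrays centred on their medians (adjusted p = 0.047) and with a trended and robust variance (adjusted p = 0.0482). Under the other 20 of 22 alternatives Dusp4 did not pass by limma. Over all 22 its log2 change ran from 0.65 to 1.17, with an adjusted p of up to 0.225.

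Dusp6, the cytoplasmic phosphatase of ERK, differed little between the groups. Its log2 intensities were 8.61, 8.67, 8.21 and 8.56 on the diabetic arrays, 8.64, 8.55 and 8.58 on the nondiabetic arrays of 21 weeks and 8.44, 8.55 and 8.29 on those of 6 weeks. All 3 groups overlapped. The log2 change with diabetes was -0.077 ± 0.13 (adjusted p = 0.826) with a 95% interval from -0.37 to 0.22, and it was 0.025 without diabetic array 3. The interval does not reach the rise seen for Dusp1 or Dusp5. Within each array, Dusp1 less Dusp6 was 1.12 higher in the diabetic group than in the nondiabetic group of the same age, Dusp5 less Dusp6 was 1.26 higher and Dusp4 less Dusp6 was 1.07 higher, with no overlap between the groups. The 3 pairs among Dusp1, Dusp4 and Dusp5 all overlapped, with differences of 0.050 to 0.18. The second probe set of Dusp6 was dim, with a mean of 3.48 over all arrays, and had a log2 change of -0.066.

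The promoters are shown so that genes that rose and genes that did not can be compared for elements through which immediate-early and feedback genes are classically controlled. RefSeq (GRCm38.p6) sequences were at hand for 7 of the 10 genes, and the 250 bases before the start site are printed 5′ to 3′ on the gene's strand for 4 genes that rose and for Dusp6 and Ier5. Capitals mark matches to the cAMP response element (CRE) TGACGTCA, its half-site TGACG, the AP-1 site TGANTCA, the CArG box that binds serum response factor, the NF-kB box and the TATA box TATAAA, searched on both strands.
Dusp1, chr17:26508473-26508722, minus strand: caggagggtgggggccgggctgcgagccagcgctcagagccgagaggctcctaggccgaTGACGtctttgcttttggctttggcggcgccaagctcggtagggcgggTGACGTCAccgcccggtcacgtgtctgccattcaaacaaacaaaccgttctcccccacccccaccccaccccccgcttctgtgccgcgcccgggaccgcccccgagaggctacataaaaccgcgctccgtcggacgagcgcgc
Dusp5, chr19:53528895-53529144, plus strand: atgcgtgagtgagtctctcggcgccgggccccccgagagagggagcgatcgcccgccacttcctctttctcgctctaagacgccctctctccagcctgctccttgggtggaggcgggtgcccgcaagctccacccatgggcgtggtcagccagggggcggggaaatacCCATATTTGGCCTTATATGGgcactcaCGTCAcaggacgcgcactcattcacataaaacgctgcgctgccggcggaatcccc
Zfp36, chr7:28379229-28379478, minus strand: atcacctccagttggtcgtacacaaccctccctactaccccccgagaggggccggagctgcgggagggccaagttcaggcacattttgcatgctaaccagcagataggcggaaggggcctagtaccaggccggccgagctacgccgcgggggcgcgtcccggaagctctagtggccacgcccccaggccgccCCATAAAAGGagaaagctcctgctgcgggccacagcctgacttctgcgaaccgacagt
Ier3, chr17:35821463-35821712, plus strand: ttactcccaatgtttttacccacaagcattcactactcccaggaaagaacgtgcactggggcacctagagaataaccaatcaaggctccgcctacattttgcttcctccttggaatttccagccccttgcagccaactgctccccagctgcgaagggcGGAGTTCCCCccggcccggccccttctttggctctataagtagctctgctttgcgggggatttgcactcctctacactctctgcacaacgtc
Dusp6, chr10:99262981-99263230, plus strand: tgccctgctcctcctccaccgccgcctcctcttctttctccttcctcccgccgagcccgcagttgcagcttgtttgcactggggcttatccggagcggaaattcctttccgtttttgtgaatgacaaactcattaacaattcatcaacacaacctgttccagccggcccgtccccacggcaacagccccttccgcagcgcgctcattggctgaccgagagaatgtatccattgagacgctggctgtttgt
Ier5, chr1:155099637-155099886, minus strand: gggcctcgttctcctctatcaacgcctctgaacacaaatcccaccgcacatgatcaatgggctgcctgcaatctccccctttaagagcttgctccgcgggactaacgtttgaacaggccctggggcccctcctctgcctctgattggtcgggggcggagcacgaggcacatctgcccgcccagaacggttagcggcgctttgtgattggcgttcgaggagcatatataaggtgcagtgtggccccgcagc

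Dusp1 held 1 full CRE, beginning 143 bases before the start, which itself contains 2 of the gene's 3 half-sites. A full CRE was found in 1.55% of the 32851 promoter windows of the same length in that table, and a half-site in 17.8%. Dusp5 held 2 CArG boxes that follow each other directly, at 82 and 72 bases, and Zfp36 held 1 at 58 bases, where 1.47% of all windows held any. Ier3 held an NF-kB box at 92 bases, which shares 2 bases with a GC box (3.9% of windows). Zfp36l1, whose promoter is not printed, held an AP-1 site (6.75% of windows) and a TATA box (12.4%). None of the elements marked in capitals occurred in the Dusp6 or Ier5 windows. The share of all windows that hold none of them was not computed. The most frequent of the marked elements, the half-site, was itself in only 17.8% of all windows, so its absence from a window is common. Only exact letters were counted, so variants of the TATA box such as tataag, which the Ier3 and Ier5 windows hold, are unmarked. The palindromic glucocorticoid response element was in 0 of the 7 windows and in 0.00913% of all windows, and the ETS site CCGGAAGT was in 0 of the 7 and in 2.88%. The GC box GGGCGG, left in lower case, was in 5 of the 7, Ier5 included, and in 32.7% of all windows. A match describes letters in this window and shows neither binding nor its absence.

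Zfp36, also called tristetraprolin, is the founding member of its family. It stood at 8.20, 7.90, 8.24 and 8.76 in log2 intensity on the diabetic arrays, at 6.84, 7.05 and 6.70 on the nondiabetic arrays of 21 weeks and at 6.90, 6.73 and 6.84 on those of 6 weeks. The lowest diabetic array was above the highest of the other 6, whose groups overlapped. Zfp36 rose 2.66-fold against the nondiabetic mice of the same age (1.41 ± 0.18, adjusted p = 0.00193) and 2.74-fold against the young mice (1.45 ± 0.18, adjusted p = 0.00317).

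Zfp36l1, a paralog with the same tandem zinc fingers, moved less. Its values were 7.69, 7.95, 7.91 and 8.13 on the diabetic arrays, 7.43, 7.28 and 7.28 on the nondiabetic arrays of 21 weeks and 7.27, 7.28 and 7.21 on the young arrays. No nondiabetic array reached the lowest diabetic array. The rise was 1.51-fold with diabetes (0.59 ± 0.13, adjusted p = 0.0381), but the call was lost under 16 of 22 alternative settings, among them 9 of the 10 arrays left out in turn (adjusted p from 0.0142 to 0.127 over the alternatives). The dimmer of its 2 probe sets had a log2 change of 0.39, and their mean one of 0.49 (adjusted p = 0.064).

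Zfp36l2, the third paralog, varied widely within the groups. It stood at 6.37, 6.77, 6.96 and 7.67 on the diabetic arrays and at 6.51, 6.32 and 5.66 on the nondiabetic arrays of 21 weeks, so that diabetic array 1 lay below nondiabetic array 1. The young arrays gave 5.68, 5.71 and 6.01, below all the diabetic arrays. Its log2 change was 0.78 ± 0.27 with diabetes (adjusted p = 0.192) and 1.15 ± 0.27 between the diabetic and the young mice (adjusted p = 0.0601). Without nondiabetic array 3 and diabetic array 4 the first of these was 0.28. Within each array Zfp36 less Zfp36l1 was 0.82 higher in the diabetic than in the nondiabetic mice of 21 weeks, and Zfp36 less Zfp36l2 was 0.63 higher, both without overlap. Zfp36l2 less Zfp36l1 was 0.19 higher, with groups that overlapped.

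Ier3, also known as IEX-1, encodes a small protein that is linked to cell survival and is a classical NF-kB target. It had the widest difference of the 10 genes. The diabetic arrays gave log2 intensities of 7.08, 6.68, 7.22 and 7.67, the nondiabetic arrays of 21 weeks 5.36, 5.99 and 4.57, and the young arrays 5.38, 5.16 and 5.40. Every diabetic array was above every other, and nondiabetic array 3 was the lowest of all 10. Ier3 rose 3.63-fold with diabetes (1.86 ± 0.29, adjusted p = 0.00773), with a log2 change of 1.49 without nondiabetic array 3 (adjusted p = 0.0234). Against the young mice it rose 3.6-fold (adjusted p = 0.00895), a call lost without 6-week array 2 (adjusted p = 0.0529) or 6-week array 3 (adjusted p = 0.0502).

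Ier2, a nuclear immediate-early protein, rose 1.74-fold with diabetes (0.80 ± 0.13, adjusted p = 0.00912) and 1.98-fold against the young mice (0.98 ± 0.13, adjusted p = 0.00377). Its values were 6.52, 6.68, 6.80 and 6.83 on the diabetic arrays, 5.82, 6.07 and 5.83 on the nondiabetic arrays of 21 weeks and 5.67, 5.65 and 5.84 on the young arrays. The diabetic arrays stood clear of the other 6 by more than their own range.

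Ier5 shares its N-terminal region with Ier2 and is known as a partner of the heat shock factor HSF1. It stood at 5.12, 4.85, 4.88 and 5.54 on the diabetic arrays, at 5.25, 5.21 and 5.30 on the nondiabetic arrays of 21 weeks and at 5.16, 5.11 and 5.0 on the young arrays. Diabetic array 4 was above, and diabetic arrays 1, 2 and 3 below, all of the nondiabetic arrays of the same age. The log2 change with diabetes was -0.16 ± 0.16 (adjusted p = 0.675), with a 95% interval from -0.50 to 0.19, which leaves out the rise of Ier2. Within each array Ier2 less Ier5 was 0.95 higher in the diabetic mice, Ier3 less Ier5 was 2.02 higher and Ier3 less Ier2 was 1.06 higher, each without overlap. Of all 12 pairs within the 3 families, 8 did not overlap and 4 did, but the share over all gene pairs was not computed. Every pair was taken in the order that gave a positive difference, and the pairs share genes. These differences between genes are descriptions and were not tested, since the changes of the genes were already known.

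**Figure D2:**
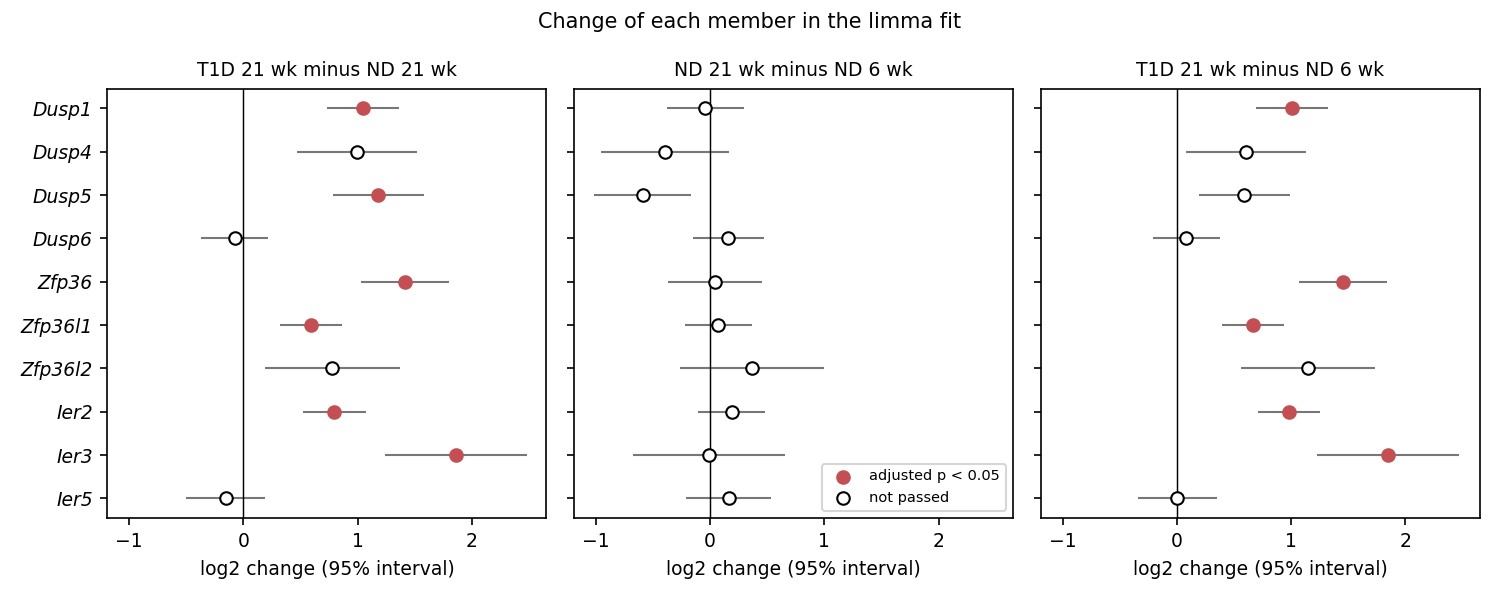
Log2 change of each gene (horizontal axes) with its 95% interval from the limma fit, in the 3 comparisons; filled points passed an adjusted p of 0.05. The counts of filled points are 6, 0 and 5 from left to right, and the intervals of Dusp6 and Ier5 include 0 in every panel.

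None of the genes passed the threshold in the age comparison. Between nondiabetic mice of 21 and 6 weeks, 0 of the 10 were called by limma, against 0.0266% of all genes (1 higher and 4 lower), and 1 of the 10, Dusp5, had an unadjusted p under 0.05, as had 7.47% of all genes. After quantile normalization 2 genes were higher and 4 lower with age, and 31 higher and 11 lower without nondiabetic array 3 and diabetic array 4. The log2 changes ran from -0.59 (Dusp5, ± 0.20 SE, adjusted p = 0.572) to 0.37 (Zfp36l2, adjusted p = 0.797), with a median of 0.058 where all genes had -0.057. Dusp5 was lower on every older array than on every young array, as were 9.73% of all genes. Ier5 was higher on every older array, as were 4.11% of all genes, by 0.16 ± 0.17 (adjusted p = 0.847). The intervals are wide for some genes: that of Ier3 ran from -0.67 to 0.65 and that of Zfp36l2 from -0.26 to 1.00.

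Diabetic mice of 21 weeks against nondiabetic mice of 6 weeks raised 5 of the 10 genes and lowered 0, against 0.903% of all genes called higher and 0.542% lower. That was 170 genes up and 102 down over the whole array, and 157 up and 162 down after quantile normalization. This comparison uses the same 4 diabetic arrays as the first, so its values are not independent of it. The 5 were Zfp36, Ier2, Dusp1, Ier3 and Zfp36l1. The count was 3 without 6-week array 2 and 3 without 6-week array 3, and Zfp36l1 (1.59-fold, adjusted p = 0.0248) and Ier3 were the calls lost. All 10 changes were positive, with a median of 0.83 where all genes had -0.022, and 7 of the 10 did not overlap (8.2% of all genes were higher without overlap). Dusp4 had a log2 change of 0.60 ± 0.24 (adjusted p = 0.264), Dusp6 of 0.083 ± 0.13 (adjusted p = 0.828) and Ier5 of 0.0051 ± 0.16 (adjusted p = 0.992).

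The rest of the phosphatase family did not pass. Of the 6 other MAP kinase phosphatases (Dusp2, Dusp7, Dusp8, Dusp9, Dusp10 and Dusp16) 0 rose and 0 fell with diabetes, with a median log2 change of 0.12. Dusp8 had the smallest p (0.52 ± 0.22, adjusted p = 0.28) and was the 1 of the 6 under an unadjusted 0.05 by limma, where 15.8% of all genes lay. Of 13 measured atypical dual-specificity phosphatases, which lack the kinase-docking domain, 0 rose and 0 fell (median 0.069), with 0 under an unadjusted 0.05. Dusp11, a phosphatase of RNA ends, had the smallest p there (0.18 ± 0.14, adjusted p = 0.543).

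Feedback inhibitors that act at the receptor or at Ras were measured for 9 of 10 listed genes. Errfi1, which binds and inhibits the EGF receptor family, rose 1.7-fold (0.77 ± 0.14, adjusted p = 0.0229), 0 fell and 8 did not pass, with a median of 0.16. The Sprouty genes stood at 0.38 (Spry1), 0.091 (Spry2) and 0.27 (Spry4), none past the threshold. Genes that report ERK output gave 0 of 7 calls (median -0.15, 1 under an unadjusted 0.05), with Etv1, an ETS factor, at 0.40 ± 0.16 (adjusted p = 0.259), Etv4 at -0.29, Etv5 at -0.15 and Phlda1 at -0.18. The MAP kinase cascade itself gave 0 of 19 calls (median 0.050, 2 under an unadjusted 0.05), with Mapk12, a p38 kinase, at 0.57 ± 0.26 (adjusted p = 0.31) and Mapk14, the main p38 kinase, at 0.16 (adjusted p = 0.527).

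On the side of mRNA decay, 3 of 22 measured genes of the deadenylation and decapping machinery rose, 0 fell and 19 did not pass, with a median of 0.21. They were Cnot6, a deadenylase of the CCR4-NOT complex (1.76-fold, adjusted p = 0.00849), Pan3, of the PAN2-PAN3 deadenylase (1.53-fold, adjusted p = 0.0306), and Ddx6, a helicase of decapping (1.5-fold, adjusted p = 0.0308). Of 14 other regulators of mRNA decay, Btg2, which binds CCR4-NOT and restrains proliferation, rose 2.05-fold (adjusted p = 0.0155), 0 fell and 13 did not pass (median 0.26). Zc3h12a, the endonuclease regnase-1, stood at 0.13 (adjusted p = 0.795). Of 16 measured mRNAs known as Zfp36 family targets, 1 rose, Fos (2.12-fold, adjusted p = 0.00549), 0 fell and 15 did not pass, with a median of 0.28. Tnf stood at 0.31 (adjusted p = 0.425), Cxcl2 at 0.84 (adjusted p = 0.119) and Il1b at 0.72 (adjusted p = 0.313). By limma, 8 of the 22 machinery genes, 6 of the 14 regulators and 8 of the 16 targets had an unadjusted p under 0.05. The share over all genes was 15.8%.

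**Figure D3:**
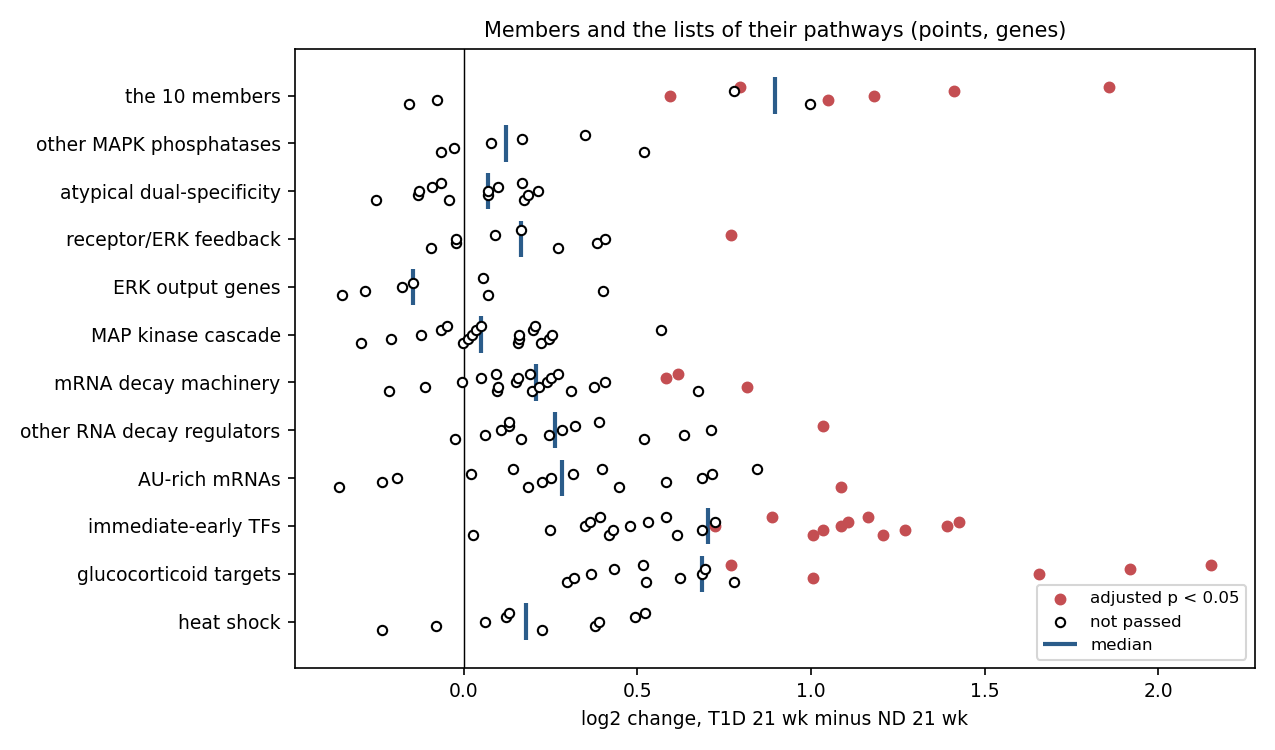
Log2 change between diabetic and nondiabetic mice of 21 weeks (horizontal axis) for the 10 genes and for each list of related genes, with 1 point per gene, filled where it passed an adjusted p of 0.05, and a vertical bar at the list's median. The medians of the 10 genes (0.90), the immediate-early factors (0.70) and the glucocorticoid targets (0.69) lie to the right of the phosphatase, kinase and decay lists.

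The immediate-early transcription factors, the other products of the same rapid response, gave 11 of 24 rises, 0 falls and 13 that did not pass, with a median of 0.70. Of the 24, 18 had an unadjusted p under 0.05 by limma, against 15.8% of all genes. Atf3 rose 2.63-fold (adjusted p = 0.000874), Klf6 2.41-fold (adjusted p = 0.000987) and Klf4 2.24-fold (adjusted p = 0.00175). Glucocorticoid targets other than Dusp1 and Zfp36 gave 5 of 15 rises and 0 falls (median 0.69), and 13 of the 15 had an unadjusted p under 0.05. Pdk4, a mitochondrial kinase, rose 4.44-fold (adjusted p = 0.000519), Per1, a clock gene, 3.78-fold (adjusted p = 0.00382) and Cebpd 2.01-fold (adjusted p = 0.0158), while Tsc22d3 stood at 0.37 (adjusted p = 0.366) and Fkbp5 at 0.62 (adjusted p = 0.182). Heat shock genes gave 0 of 10 calls (median 0.18), and 4 of the 10 were under an unadjusted 0.05, against 15.8% of all genes. Hsp90aa1 had the smallest p (0.49 ± 0.14, adjusted p = 0.116). Errfi1 and Cebpd each stand in a further list named here, and Fos in both the target and the immediate-early list.

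With age, 0 of the 150 measured genes of these 11 lists were called by limma. By the same fit 20 (13.3%) had an unadjusted p under 0.05, against 7.47% of all genes. The glucocorticoid targets had a median log2 change of -0.40 with age, with 6 of 15 under an unadjusted 0.05. Their median was 0.31 for the diabetic against the young mice. Between the diabetic and the young mice 9 immediate-early factors rose, with Atf3 at 2.81-fold and Fosb at 2.77-fold, and 5 glucocorticoid targets rose (Mt2, Mt1, Cebpd, Per1 and Pdk4). In the same comparison Cnot6 and Ddx6 rose among the decay machinery, Btg1 and Btg2 among the other decay regulators and Fos among the targets. The remaining lists gave 0 calls there, and none of the 11 lists held a gene that fell.

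The same arrays differed in other ways. In bulk RNA, fewer cells of a type and less RNA per cell cannot be told apart. Of 6 parotid-type serous cargo genes, 6 rose. Their mean log2 level was 10.28 to 10.74 on the diabetic arrays and 4.28 to 6.68 on the nondiabetic arrays of 21 weeks. It was 4.85 to 8.66 on the 6-week arrays, and the labels do not name the gland. Between the 21-week groups, the mean of 6 granular convoluted tubule genes was 3.85 to 5.96 against 8.99 to 10.04, with 6 of 6 falling. The mean of 8 macrophage markers was 5.66 to 6.32 against 4.96 to 5.17, with Cd68 and Mrc1 rising. The mean of 8 T cell markers was 4.31 to 5.52 against 4.02 to 4.73, with 0 calls and 1 unadjusted p under 0.05. The mean of 6 B cell markers was 3.77 to 5.45 against 3.64 to 4.30, with 0 calls and 0 unadjusted p under 0.05. On the 6-week arrays these means were lower, 3.53 to 3.79 for T cells and 3.35 to 3.46 for B cells. With age 0 of these markers were called, and Cd3g alone rose for the diabetic against the young mice (3.93-fold, adjusted p = 0.0122 by limma). Between the 21-week groups fibroblast markers gave 0 calls of 6, though 3 had an unadjusted p under 0.05. Their mean was 6.19 to 6.53 against 5.09 to 5.86. Among the other marker lists 2 of 5 myoepithelial, 2 of 6 adipocyte and 1 of 4 mucous markers rose, and 2 of 6 duct markers fell. Acinar markers, which define the labelled tissue, were bright in both groups (9.58 to 10.05 against 9.99 to 10.19). The part of these differences in the values of the 10 genes was not tested.

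Nondiabetic array 3 of 21 weeks and diabetic array 4 stood apart. Over all genes, the median correlation with the other arrays was 0.943 for diabetic array 4 and 0.956 for nondiabetic array 3, against 0.959 to 0.971 for the other 8. The lowest correlation of all, 0.917, was between these 2 arrays. Diabetic array 4 was the highest diabetic array for 8 of the 10 genes, all but Dusp1 and Dusp6, and it also had the highest T cell level (5.52, against 4.31 to 4.37 on the other diabetic arrays). Nondiabetic array 3 was the lowest of its group for Dusp4, Dusp5, Ier3, Zfp36 and Zfp36l2. Without both arrays 5 of the 10 genes rose with diabetes, Zfp36l1 being the call lost. The log2 changes were then 1.32 for Ier3 (adjusted p = 0.0156), 1.17 for Zfp36 (adjusted p = 0.00472) and 0.90 for Dusp5 (adjusted p = 0.0346).

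**Figure D4:**
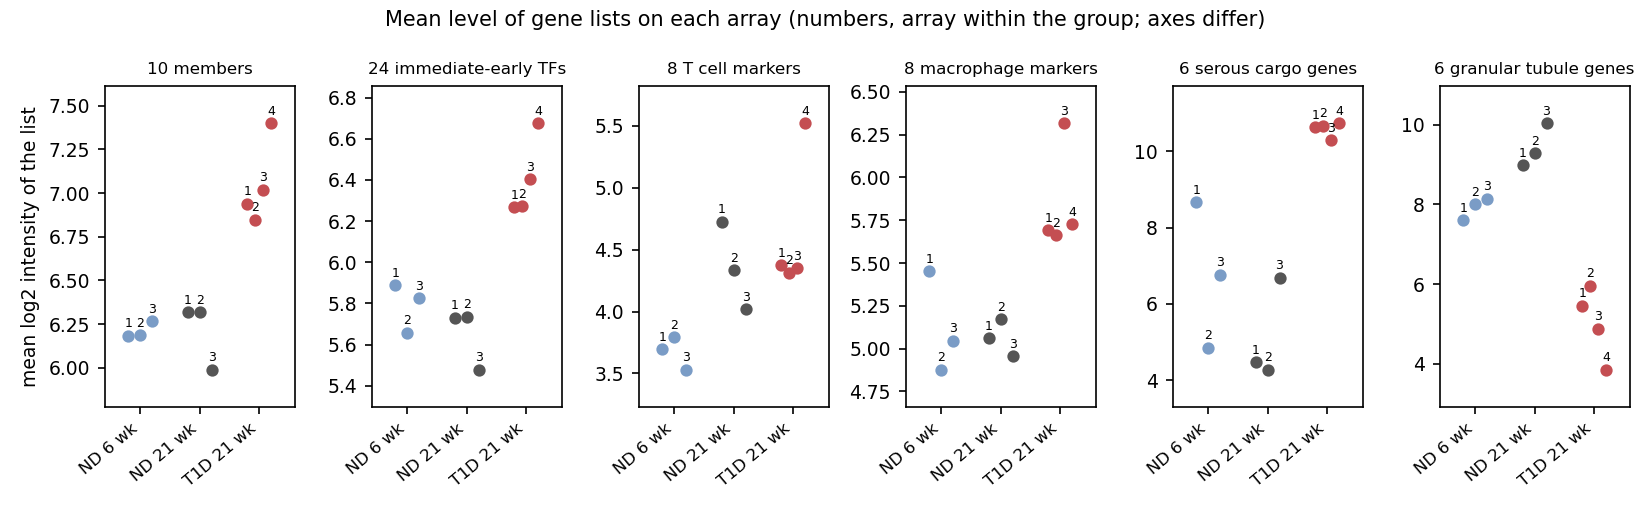
Mean log2 intensity (vertical axes, which differ) of the 10 genes and of 5 other lists on each array, with the array's number within its group. The 10 genes and the immediate-early factors are highest on diabetic array 4, as are the T cell markers, while macrophage markers are highest on diabetic array 3.

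The mean of the 10 genes, each centred on its own mean, was 0.39, 0.30, 0.47 and 0.85 on the diabetic arrays and between -0.56 and -0.23 on the other 6. The genes whose values were most like this mean over the 10 arrays were Hnrnpa2b1 (Pearson's r = 0.980), Slc6a6 (0.977), Nfkbiz (0.976), Numa1 (0.972) and Hnrnpul2 (0.972). These correlations describe 10 arrays that fall into a diabetic and a nondiabetic set and share that difference. With each group's mean removed, the 9 other genes followed each gene to different degrees: their mean correlated with Zfp36 at 0.879 and with Zfp36l2 at 0.861, with Dusp1 at 0.233 and with Dusp6 at -0.198. The closest pair was Zfp36 with Ier3 (0.827), followed by Dusp4 with Dusp5 (0.809), and the most opposed was Dusp6 with Ier2 (-0.564). These are descriptions over 10 arrays that share their normalization.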

How the data were processed

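Total RNA of salivary gland cells from 10 mice was labelled with biotin and run on Affymetrix arrays. The authors deposited a log2 value for each probe set, summarised and normalized by RMA; the submitters' processing notes name Affymetrix Power Tools. The sources used here give neither its version nor its settings. Precision is limited by how many arrays there are.

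Of 41345 probe sets, 23521 had 1 gene symbol in the array's gene table and 23328 of these matched RefSeq by gene identifier, which changed 0 symbols. Several symbols stood beside 1814, and 16010 were unnamed here. Probe sets with 1 symbol whose value exceeded the array's 25th percentile in at least 3 arrays were kept, and the brightest stood for its gene. limma 3.58.1 in R 4.3.3 (lmFit, eBayes) fitted 1 mean per group to all 10 arrays, with 7 residual degrees of freedom and 5.61 prior ones. All 3 differences were tested two-sided, with Benjamini-Hochberg adjustment over 18826 genes and a threshold of 0.05. Errors in the report are SE of the fit. The steps were tested on simulated data. Lists are described by counts and medians, without a test of their own.

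Named genes were the 10 genes, up to 3 genes per list with the smallest p among those called (or the 1 with the smallest p), and the 5 genes most like the mean of the 10. Other genes of the lists named without a call were chosen after their values were seen. The genes and the lists were chosen with earlier results of these data known. Differences between genes of a family were taken within each array and not tested. Alternatives were other filters, probe set rules, normalizations, variance models, sample sets and thresholds, and the replicate number as a block.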

Additional observations from a re-analysis of the deposited data

How the results depend on the processing

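Over 22 alternatives, the count of the 10 genes called with diabetes was 4 to 7 (main value 6), and with age it was 0 under every alternative. By limma 1 of the 10 had an unadjusted p under 0.05 in the age comparison. Between the diabetic and the young mice the count was 3 to 6 (main value 5), with 3 when a change of at least 2-fold was asked for. With each array left out in turn it was 5 to 6 with diabetes, 0 with age and 3 to 6 for the diabetic against the young mice. Dusp1, Dusp5, Zfp36 and Ier3 kept their call with diabetes under all 22 alternatives, and Ier2 lost it where a 2-fold change was asked for. Of 660 values of single genes, 623 kept their direction where it was called and their side of the threshold, 29 lost the call, 8 gained it and 0 reversed. The cause of the lost calls was not tested, except that the stricter thresholds remove calls by construction.

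The replicate numbers of the labels did not pair the arrays: deviations from group means of same-numbered arrays correlated between -0.118 and 0.066, and 4 of 9 arrays were closest to an array of their own number. With the replicate block 5, 0 and 4 of the 10 genes were called with diabetes, with age and for the diabetic against the young mice, and 204, 4 and 206 of all genes.

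The count over all genes moved more. With diabetes it was 271, and 161 with only the groups compared, 69 at an adjusted p of 0.01, 148 with a 2-fold change, 176 without both arrays that stand apart and 84 to 267 with each array left out. Leaving out nondiabetic 21-week array 3 gave 84, array 1 of that group 161, diabetic array 3 gave 97 and diabetic array 2 gave 153. With age it was 5 in the main analysis, 12 with a trended and robust variance, 18 with array weights, 0 with only the groups compared, 3 at an adjusted p of 0.01, 42 without both arrays that stand apart, and 1 to 10 with each array left out. For the diabetic against the young mice it was 272 in the main analysis, 672 with array weights, 58 at an adjusted p of 0.01, 128 with a 2-fold change, 508 without both arrays, and 48 to 400 with each array left out. Here 6-week arrays 3, 2 and 1 gave 48, 68 and 98, diabetic arrays 3 and 2 gave 91 and 156, and leaving out nondiabetic 21-week array 3 gave 400.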

Other observations

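With each group's mean removed, the genes whose deviations were most like the mean deviation of the 10 feedback genes over the 10 arrays were Lat (Pearson's r = 0.988), Manea (0.984), Zmiz2 (0.984), Zc3h12a (0.983) and Timeless (0.983). This likeness is a description, and how far it rests on single arrays was not tested. Diabetic array 4 had the highest mean of the 10 genes in its group (0.85, against 0.30 to 0.47 on the other diabetic arrays). It also had the highest T cell and B cell marker levels (5.52 and 5.45). Outside the first comparison, Btg1, an antiproliferative partner of CCR4-NOT, rose 1.92-fold between the diabetic and the young mice (adjusted p = 0.0117 in limma's fit) and stood at a log2 change of 0.63 with diabetes (adjusted p = 0.0657). Cnot6 and Ddx6 also rose against the young mice, by 1.54-fold (adjusted p = 0.0335) and 1.46-fold (adjusted p = 0.041). Heat shock genes had a median log2 change of -0.47 with age. Their mean level was 5.89 to 6.04 on the older nondiabetic arrays and 6.26 to 6.70 on the young arrays. By limma 0 of 10 passed and 5 had an unadjusted p under 0.05, against 7.47% of all genes. Hspe1, a mitochondrial chaperone, had the smallest p of the heat shock genes in that comparison.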
